A study of Mus musculus with 18 samples.

Results

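The mRNAs of 7 secreted cytokines that macrophages make in response to lipopolysaccharide (LPS) were followed in the total and the polysome-associated mRNA of RAW264.7 cells (RAW cells). They were the interleukin-1 genes Il1b, Il1a and Il1rn, the tumour necrosis factor gene Tnf, the IL-6 family cytokine gene Lif, the colony-stimulating factor gene Csf3 and the interleukin-10 gene Il10. The genes were chosen as cytokines known from these libraries to be higher after LPS, so their difference between LPS and control is given below as a description without a test. All 7 were among the 11243 protein-coding genes of the count table, which keeps only genes with at least 1 count in every library.

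RAW cells are a transformed mouse macrophage line, so every library came from 1 cell line. The control cells received the vehicle DMSO, the LPS cells 500 ng/mL LPS for 6 h, and the third group the same LPS together with 100 nM torin1, an inhibitor of the kinase mTOR, which was added 15 min ahead. No library from cells given torin1 without LPS was analysed here, so an effect of torin1 on unstimulated cells cannot be told apart from its effect on the response to LPS. Each treatment was run in 3 independent experiments, and each of the 9 lysates gave a total mRNA library and a library of mRNA from the heavy polysomes, the transcripts that carry several ribosomes. The 18 libraries held 27800983 to 47725557 counts. All 12 macrophage markers examined were in the table, with a summed level of 12900 to 23400 CPM (counts scaled to a common library size), whereas the 4 B cell, 4 fibroblast and 4 epithelial markers were not. Of 6 T cell markers only Lck was listed, and of 4 endothelial markers only Cdh5.

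LPS is sensed by the receptor TLR4, which through MyD88, NF-κB and MAP kinases turns on inflammatory genes in macrophages. IL-1α and IL-1β activate the same receptor and drive fever and inflammation, TNF acts on neighbouring cells through its own receptors, LIF signals through gp130, and G-CSF, the product of Csf3, directs the bone marrow to make neutrophils. The response also carries its own brakes, since the product of Il1rn occupies the IL-1 receptor without activating it, and IL-10 holds back macrophage activation. Many cytokine mRNAs are short-lived, and AU-rich elements in their 3′ untranslated regions (UTRs) recruit proteins that hasten their decay.

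The members lie on 4 chromosomes of the GRCm38 build. Il1b (chr2:129364570-129371139, minus strand), Il1a (chr2:129299610-129309972, minus strand) and Il1rn (chr2:24336853-24351494, plus strand) share chromosome 2, Lif (chr11:4257557-4272514, plus strand) and Csf3 (chr11:98701263-98703629, plus strand) share chromosome 11, Tnf (chr17:35199381-35202007, minus strand) is on chromosome 17 and Il10 (chr1:131019845-131024974, plus strand) on chromosome 1. Il1b is overlapped on the other strand by the antisense gene Il1bos and Il1a by the transcript Gm14023. Whether the counting used strand is not given in the sources used here, so reads of these partners may be included in the counts of Il1b and Il1a.

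The AU-rich stretches are shown because the members differed in them. The pentamer ATTTA, searched on the transcript strand, occurred 8 times in the annotated 3′ UTR of Tnf, 7 times in Lif, 6 times in Csf3, 6 times in Il10, 4 times in Il1b, 3 times in Il1a and 0 times in Il1rn. For comparison, 69.5% of 10680 genes of the table with an annotated 3′ UTR held at least 1 ATTTA, with a median of 1.3 per kb. Per kb of UTR, Tnf had 10.5, Csf3 8.97, Il1b 8.71, Il10 8.5, Il1a 2.72 and Lif 2.2. The longer element TTATTTATT, which contains the pentamer, was found 5 times in Tnf and 2 times in Lif, and in 8.04% of the genes. The densest window of at most 30 bases of 5 members is printed 5′ to 3′ with each pentamer in capitals.
Tnf 3′ UTR, chr17:35199679-35199705, minus strand: ATTTAttATTTATTTAttATTTATTTA
Il1b 3′ UTR, chr2:129364808-129364824, minus strand: ATTTATTTAtgtATTTA
Csf3 3′ UTR, chr11:98702992-98703013, plus strand: ATTTAtctctATTTAatATTTA
Lif 3′ UTR, chr11:4272414-4272443, plus strand: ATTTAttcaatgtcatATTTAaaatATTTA
Il1a 3′ UTR, chr2:129300109-129300125, minus strand: ATTTAtaaatatATTTA
Tnf had the densest window, with 5 pentamers in 27 bases.

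RefSeq promoter sequences (GRCm38.p6, 250 bases before to 50 bases after the start site) were matched for 5 of the 7 members, Il1b, Il1a, Il1rn, Tnf and Lif, and the outermost is printed for Il1rn, which has 3. They are shown since these genes had in common a high level after LPS and differed in their level with torin1. Both strands were searched, and capitals mark matches to a core promoter element (TATAAA) that positions the polymerase. They also mark matches to the binding motif of the stress-activated AP-1 factors (TGANTCA).
Il1b promoter, chr2:129371090-129371389, minus strand: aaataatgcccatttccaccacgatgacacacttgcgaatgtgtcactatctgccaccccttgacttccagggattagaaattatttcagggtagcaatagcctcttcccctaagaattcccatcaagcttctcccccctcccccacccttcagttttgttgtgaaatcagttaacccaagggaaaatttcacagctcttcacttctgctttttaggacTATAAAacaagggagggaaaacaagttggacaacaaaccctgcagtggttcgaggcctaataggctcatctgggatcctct
Il1a promoter, chr2:129309923-129310222, minus strand: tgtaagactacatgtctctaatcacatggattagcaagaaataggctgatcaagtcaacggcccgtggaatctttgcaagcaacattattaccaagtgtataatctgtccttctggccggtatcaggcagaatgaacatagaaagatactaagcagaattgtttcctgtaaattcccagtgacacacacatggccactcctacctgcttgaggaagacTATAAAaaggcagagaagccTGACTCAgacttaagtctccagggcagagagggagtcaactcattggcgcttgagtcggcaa
Lif promoter, chr11:4257318-4257617, plus strand: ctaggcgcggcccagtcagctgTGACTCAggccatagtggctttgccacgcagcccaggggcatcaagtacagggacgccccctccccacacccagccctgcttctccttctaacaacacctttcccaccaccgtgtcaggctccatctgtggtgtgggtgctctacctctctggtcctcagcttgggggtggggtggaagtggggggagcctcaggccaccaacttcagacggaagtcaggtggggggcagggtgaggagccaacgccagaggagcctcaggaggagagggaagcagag
Tnf promoter, chr17:35201958-35202257, minus strand: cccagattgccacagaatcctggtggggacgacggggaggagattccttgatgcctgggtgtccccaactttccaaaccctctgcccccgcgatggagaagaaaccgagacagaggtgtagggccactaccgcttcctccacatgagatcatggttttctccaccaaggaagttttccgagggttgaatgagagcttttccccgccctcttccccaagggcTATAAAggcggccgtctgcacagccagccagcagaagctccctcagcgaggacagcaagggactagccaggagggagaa
Il1rn promoter, chr2:24336610-24336909, plus strand: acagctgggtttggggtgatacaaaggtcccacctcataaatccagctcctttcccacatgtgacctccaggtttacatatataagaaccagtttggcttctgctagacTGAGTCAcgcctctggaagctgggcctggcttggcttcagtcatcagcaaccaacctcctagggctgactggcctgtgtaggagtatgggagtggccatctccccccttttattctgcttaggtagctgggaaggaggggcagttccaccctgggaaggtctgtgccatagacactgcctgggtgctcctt
TATAAA started at position −31 from the start site in Il1b, −32 in Il1a and −29 in Tnf, and at 14 on the opposite strand in a further Il1rn promoter, and 13.6% of 32851 RefSeq promoters held it. TGANTCA, found in 7.81% of promoters, started at −12 in Il1a, −228 in Lif and −141 in the printed Il1rn promoter. An NF-κB consensus, found in 1.63%, was present in the other 2 Il1rn promoters, which overlap and share the match, and in no other window of the members. TGACGTCA (CRE, 1.79% of promoters) and a C/EBP consensus (2.25%) were in none of the members' windows. These are matches of letters only.

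**Figure D1:**
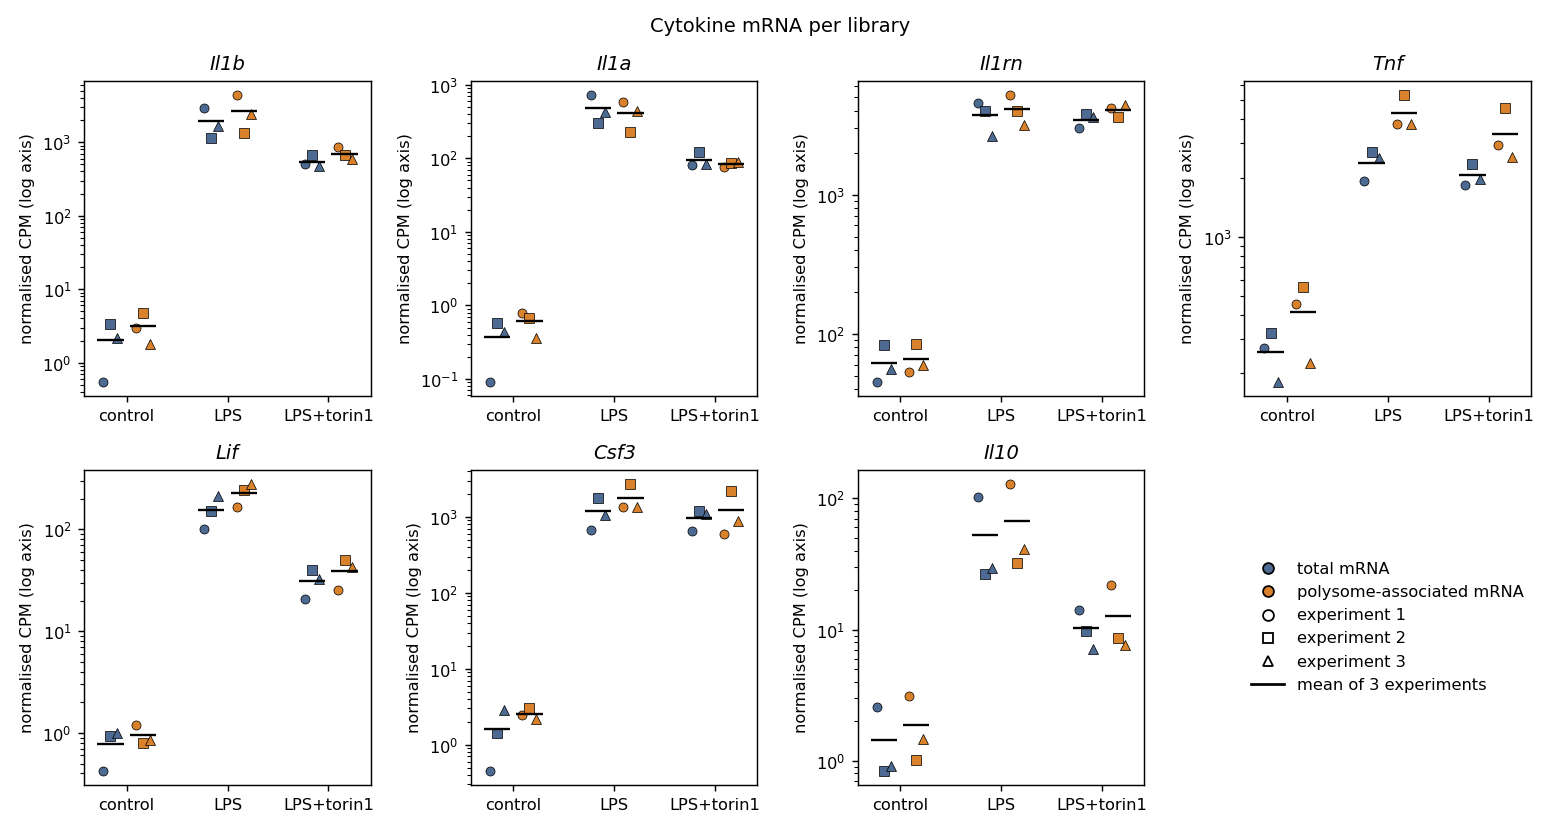
Normalised CPM of each cytokine mRNA (log axis) in the 18 libraries by treatment; blue points are total and orange points polysome-associated mRNA, the symbol is the experiment and the line the mean of 3 experiments. In every panel all libraries with LPS sit above all control libraries, and in the panels of Il1b, Il1a, Lif and Il10 the LPS libraries with torin1 also sit wholly below those without it.

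The members were nearly silent or low in resting cells, except Tnf and Il1rn, and together they took a far larger share of the mRNA after LPS. The 7 genes held 0.0378% ± 0.00961 of the counts of control total mRNA, 0.893% ± 0.0875 after LPS and 0.677% ± 0.0808 with torin1 (mean ± SD, n = 3). In polysome-associated mRNA the shares were 0.0562% ± 0.0214, 1.23% ± 0.164 and 0.913% ± 0.155. In a bulk sample, fewer expressing cells and less mRNA per cell cannot be told apart, which holds for every level below.

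Il1b encodes the precursor of secreted IL-1β. Its CPM in total mRNA was 0.548, 3.39 and 2.17 in the control libraries of experiments 1, 2 and 3, 2938, 1157 and 1683 after LPS, and 501.6, 661 and 471.1 after LPS with torin1. In polysome-associated mRNA it was 2.98, 4.71 and 1.81, then 4344, 1320 and 2387, and then 852.1, 660.4 and 587.8. The groups did not overlap in either RNA type, and experiment 2 had the lowest LPS value in both. The log2 difference between LPS and control was 9.85 in total and 9.73 in polysome-associated mRNA. It rests on low control levels, as few as 18 counts in total mRNA of experiment 1. It was 8.998 in total mRNA without experiment 1 and 10.72 without experiment 2, and 10.45 in polysome-associated mRNA without experiment 2.

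Il1a, whose product acts as an alarm signal from damaged cells, is the neighbour of Il1b on chromosome 2. Total mRNA gave a CPM of 0.0913, 0.568 and 0.44 in control, 718.2, 306.7 and 422.3 after LPS, and 80.95, 123.2 and 82.51 with torin1. Polysome-associated mRNA gave 0.796, 0.679 and 0.359, then 584.6, 225.5 and 443.2, and then 75.87, 87.7 and 89.27. The lowest control value stands for 3 counts, so the size of the difference from control, 10.29 in total and 9.42 in polysome-associated mRNA on the log2 scale, rests on few counts. In total mRNA it was 9.485 without experiment 1 and 11.03 without experiment 2.

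Il1rn, the antagonist of the IL-1 receptor, was already present in resting cells. Its total mRNA CPM was 45.06, 83.61 and 55.76 in control, 4580, 3992 and 2630 after LPS, and 2997, 3768 and 3590 with torin1. Its polysome-associated CPM was 53.24, 84.23 and 59.87, then 5172, 3996 and 3176, and then 4220, 3633 and 4392. The libraries with and without torin1 overlapped in both RNA types, and the difference between LPS and control was 5.92 and 5.97 on the log2 scale in total and polysome-associated mRNA.

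Tnf, which encodes a membrane-bound cytokine that is shed from the cell surface, had the highest resting level of the 7 genes per kb of exon (157 CPM per kb in total mRNA). Its total mRNA CPM was 269.8, 321.4 and 180.9 in control, 1921, 2711 and 2534 after LPS, and 1843, 2351 and 1976 with torin1. Its polysome-associated CPM was 451.7, 552.6 and 225.5, then 3788, 5285 and 3787, and then 2949, 4553 and 2546. The LPS libraries with and without torin1 overlapped, and the log2 difference from control, 3.21 in total and 3.39 in polysome-associated mRNA, was the lowest of the members.

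Lif, a cytokine of the IL-6 family, had a total mRNA CPM of 0.426, 0.932 and 0.997 in control, 101.3, 152.9 and 212.2 after LPS, and 20.6, 39.56 and 32.81 with torin1. In polysome-associated mRNA the values were 1.21, 0.792 and 0.849, then 166.9, 243.9 and 279.1, and then 25.62, 49.95 and 42.37. The 3 treatments did not overlap. The difference between LPS and control was 7.60 in total and 7.92 in polysome-associated mRNA on the log2 scale.

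Csf3, the gene of G-CSF, had a total mRNA CPM of 0.456, 1.41 and 2.9 in control, 670.1, 1790 and 1070 after LPS, and 658, 1205 and 1074 with torin1. In polysome-associated mRNA it was 2.46, 3.08 and 2.17, then 1328, 2700 and 1353, and then 585.9, 2182 and 868.4. Experiment 2 was the highest of both LPS groups in both RNA types, and LPS libraries with and without torin1 overlapped. The difference from control was 9.53 and 9.45 on the log2 scale, with as few as 15 counts in the control libraries, and without experiment 3 it was 10.31 in total mRNA.

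Il10 was the anti-inflammatory member, and its libraries split by experiment. Total mRNA gave a CPM of 2.56, 0.841 and 0.909 in control, 102.9, 26.31 and 29.51 after LPS, and 14.07, 9.7 and 7.09 with torin1. Polysome-associated mRNA gave 3.12, 1.02 and 1.45, then 128.4, 31.89 and 41.31, and then 22.02, 8.62 and 7.59. Experiment 1 was the highest in all 3 treatments and both RNA types, and the log2 difference between LPS and control was 5.23 in total and 5.17 in polysome-associated mRNA.

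All 7 members were higher after LPS in each of the 3 experiments, which is the property they were chosen for. In total mRNA 32.2% of all genes were called higher after LPS, and in polysome-associated mRNA the share was 26.4%, with the study's false discovery rate (FDR) limit of 0.25. The median member difference was 7.60 in total and 7.92 in polysome-associated mRNA, beside a median of −0.018 and −0.031 over all genes. Per kb of annotated exon, which allows levels of different genes to be compared, the order after LPS in total mRNA was Tnf (1457 ± 253.1 CPM per kb), Il1b (1010 ± 479.8), Csf3 (832.7 ± 401.6), Il1rn (674.6 ± 180.7), Il1a (244.4 ± 107.5), Il10 (40.38 ± 33.06) and Lif (35.74 ± 12.75; mean ± SD, n = 3). Among the 4 highest, each neighbouring pair had overlapping libraries, as did Il10 and Lif, whereas the libraries of Il1rn lay above those of Il1a, and those of Il1a above those of Il10. The exon length of Il1rn covers 6 transcripts and may understate its level.

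The main comparison was of cells given LPS with torin1 and cells given LPS alone. Torin1 lowered the mRNA of Il1b, Il1a, Lif and Il10 by 3.54- to 5.74-fold in both RNA types. Il1rn, Tnf and Csf3 did not pass in the main fit, which had no term for the experiment. With the experiment as a block, Tnf and Csf3 were also called lower in polysome-associated mRNA, and Il1rn was not. The members that fell in the main fit included both IL-1 agonists and also the anti-inflammatory Il10, and the 3 that did not pass included the IL-1 antagonist. Differences between LPS with torin1 and LPS alone were assessed by the quasi-likelihood test of edgeR and adjusted over all 11243 genes (Benjamini-Hochberg); the LPS libraries of this comparison are the same ones by which the members were known to be high.

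**Figure D2:**
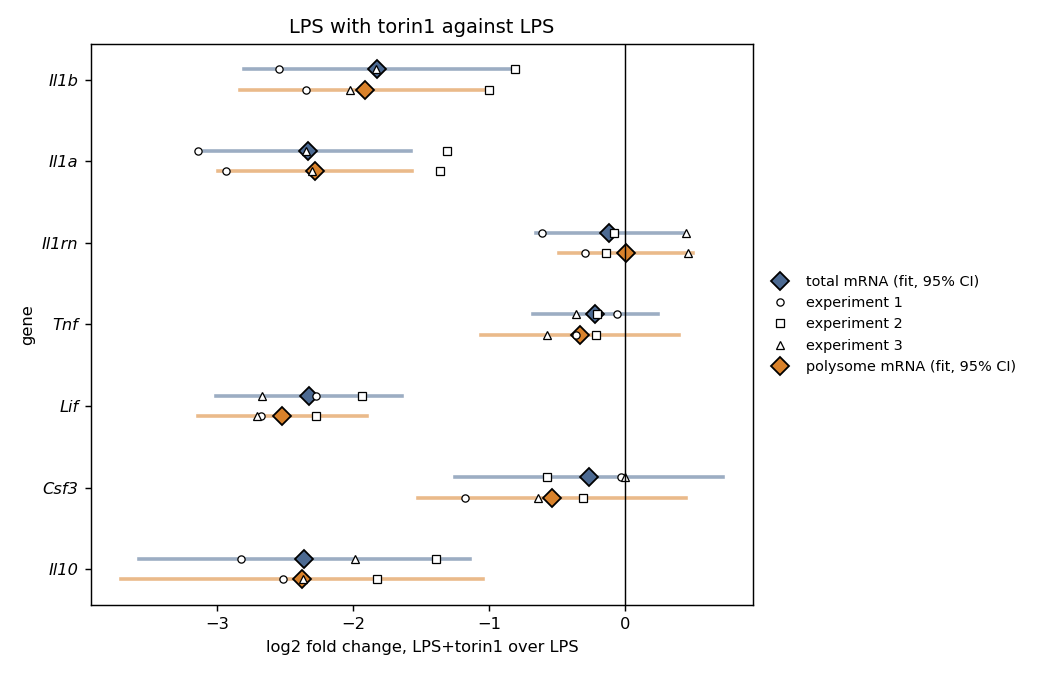
Log2 fold change of each cytokine mRNA in LPS with torin1 over LPS alone; diamonds are the fitted change with its 95% confidence interval (bar) in total (blue) and polysome-associated mRNA (orange), and open symbols are the 3 experiments. Il1b, Il1a, Lif, Il10 and Tnf lie left of 0 in every experiment in both RNA types, and Csf3 does so in polysome-associated mRNA. The bars of Il1rn, Tnf and Csf3 cross 0.

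In total mRNA, Lif fell by 2.33 on the log2 scale (SE 0.309, adjusted p = 0.000632) and Il1a fell by 2.34 (SE 0.343, adjusted p = 0.0011). Il10 fell by 2.36 (SE 0.549, adjusted p = 0.0103) and Il1b fell by 1.82 (SE 0.441, adjusted p = 0.0121). Each of these 4 genes was lower in 3 of 3 experiments. Tnf was also lower in 3 of 3 experiments, by smaller log2 differences of −0.06, −0.21 and −0.36. Without experiment 1, which had the highest Il10 levels, the change of Il10 was −1.735 (adjusted p = 0.00373). The differences of Csf3, −0.27 (95% CI −1.25 to 0.72, adjusted p = 0.69), Tnf, −0.22 (−0.68 to 0.24, adjusted p = 0.47), and Il1rn, −0.11 (−0.66 to 0.43, adjusted p = 0.763), did not pass. The 4 of 7 members called lower stand beside 26.4% of all genes, and the median member difference was −1.82 beside 0.001 over all genes.

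In polysome-associated mRNA the same 4 members fell. Lif fell by 2.52 (SE 0.282, adjusted p = 0.000845), Il1a fell by 2.28 (SE 0.322, adjusted p = 0.00194), Il10 fell by 2.38 (SE 0.603, adjusted p = 0.027) and Il1b fell by 1.91 (SE 0.418, adjusted p = 0.0143), each in 3 of 3 experiments. Of all genes 18.2% were called lower, and the median member difference was −1.91 beside 0 over all genes. Il1rn differed by 0.011 (95% CI −0.48 to 0.50, adjusted p = 0.98), and it was lower in experiments 1 and 2 and higher in experiment 3. Tnf (−0.33, −1.06 to 0.40, adjusted p = 0.545) and Csf3 (−0.54, −1.53 to 0.45, adjusted p = 0.461) had intervals that include 0, but both were lower in 3 of 3 experiments. With the experiment as a block both passed, Csf3 at −0.65 (adjusted p = 0.0858) and Tnf at −0.37 (adjusted p = 0.207), so that 6 of 7 members were called lower beside 24.3% of all genes. Leaving out experiment 2 without the block also made Csf3 pass, at −0.86 (adjusted p = 0.018). In total mRNA the block left the same 4 members called, beside 31.4% of genes.

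The separation of the libraries gave the same 4 genes. In both RNA types, the highest library with torin1 was below the lowest LPS library for Il1b, Il1a, Lif and Il10 and for no other member, while 19.8% of all genes were separated in this way in total mRNA, and 16.8% on polysomes. The size of the reduction differed between experiments. Il1b in total mRNA was lower by log2 differences of −2.55, −0.81 and −1.84 in experiments 1, 2 and 3, and Il1a by −3.14, −1.31 and −2.35. Lif was the most even, with −2.27, −1.94 and −2.67. Experiment 2 showed the smallest reduction of all 4 genes in both RNA types.

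Torin1 left the members well above the resting level. The log2 difference between LPS with torin1 and control, a description like that of LPS and control, had a median of 5.81 in total mRNA over the 7 members, between 2.87 and 9.26, and of 5.98 in polysome-associated mRNA, between 2.79 and 8.92. For every member the lowest library with LPS and torin1 exceeded the highest control library. Across the table, 33.1% and 28.5% of genes were called higher in this comparison.

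The balance of IL-1 agonist and antagonist mRNA followed from these changes. The summed level of Il1a and Il1b over that of Il1rn, each per kb of exon, was 0.041, 0.137 and 0.135 in total mRNA of the control libraries, 2.3, 1.06 and 2.31 after LPS, and 0.562, 0.601 and 0.445 with torin1. In polysome-associated mRNA it was 0.204, 0.185 and 0.105, then 2.75, 1.12 and 2.57, and then 0.636, 0.595 and 0.445. All 6 LPS libraries thus lay above all 6 libraries with torin1, and these above all 6 control libraries. Whether the ratio is above 1 depends on the exon length used for Il1rn, which covers 6 transcripts. Without division by length, in CPM, it was 0.367 to 0.953 in the LPS libraries, 0.154 to 0.22 with torin1 and 0.0142 to 0.0709 in control, below 1 in all 18 libraries. The mean ratio in total mRNA was 1.89 ± 0.72 after LPS and 0.536 ± 0.0809 with torin1 (SD, n = 3). In polysome-associated mRNA it was 2.15 ± 0.898 and 0.559 ± 0.101. Since the ratio is built from members whose changes are given above, it is a description without a test.

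**Figure D3:**
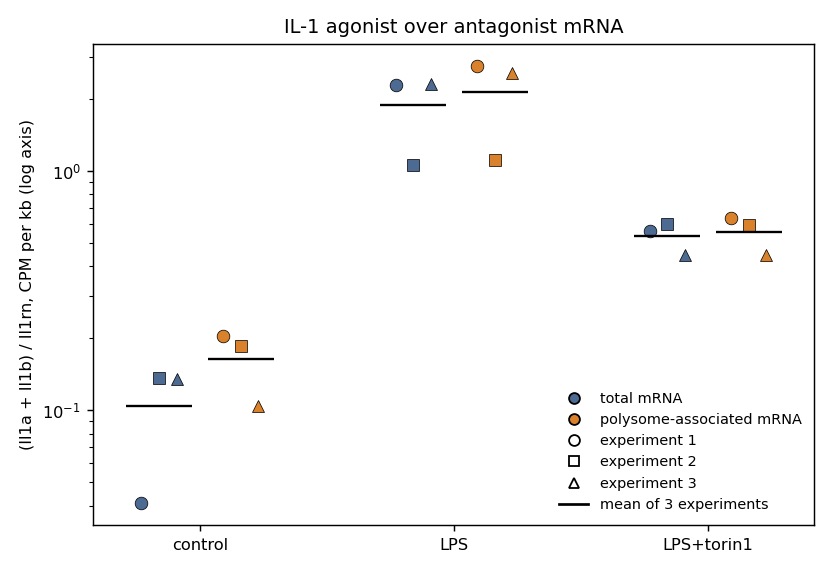
Ratio of summed Il1a and Il1b mRNA to Il1rn mRNA, in CPM per kb of exon (log axis), in the 18 libraries by treatment; colour is the RNA type, the symbol the experiment, and the line the mean of 3 experiments. The 6 LPS libraries lie between 1.06 and 2.75, and the 6 libraries with torin1 between 0.445 and 0.636; the height of the whole scale depends on the exon length taken for Il1rn.

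Polysome-associated mRNA was next compared with total mRNA, a comparison that the choice of members did not use. The main fit did not pair the libraries of a lysate, and the fit with the lysate as a block follows it. After LPS, Tnf was enriched on heavy polysomes by 0.84 on the log2 scale (SE 0.295, adjusted p = 0.0297) and Lif by 0.56 (SE 0.307, adjusted p = 0.147), whereas 34.1% of all genes were called enriched. The log2 ratio of Tnf was above that of 90.3% of genes, and it was 0.98, 0.96 and 0.58 in experiments 1, 2 and 3. Il1a was the only member with a ratio below 0, −0.21 (95% CI −0.96 to 0.54, adjusted p = 0.661), which put it above 36.1% of genes. Csf3 (0.61), Il1b (0.48), Il10 (0.34) and Il1rn (0.14) had adjusted p-values of 0.34 to 0.672.

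The lysate as a block changed these calls. Total and polysome-associated libraries of the same lysate varied together, and with the block 5 members were called enriched after LPS, beside 40.5% of genes. They were Tnf (0.84, adjusted p = 0.000161), Lif (0.60, adjusted p = 0.00257), Il10 (0.36, adjusted p = 0.0303), Csf3 (0.64, adjusted p = 0.0522) and Il1b (0.42, adjusted p = 0.125). Without experiment 2 and without the block, Tnf alone passed.

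Tnf was called enriched on heavy polysomes in all 3 treatments. Its log2 ratio was 0.67 in control cells (SE 0.294, adjusted p = 0.0684) and 0.70 with LPS and torin1 (SE 0.294, adjusted p = 0.0793), and Tnf was the only member called in either. In control cells Csf3 (0.69), Il1a (0.66) and Il1b (0.605) had ratios close to that of Tnf, with larger SEs. Il10 was at 0.39, Lif at 0.25 and Il1rn at 0.097. With LPS and torin1 the other members ran from −0.18 (Il1a) to 0.36 (Il1b). In those treatments 36.3% and 27.8% of genes were called enriched. With the lysate block, 5 members were called enriched in control cells, beside 41.4% of genes, and 5 with LPS and torin1, beside 34.9%; Tnf, Il1b and Il10 were in both sets.

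**Figure D4:**
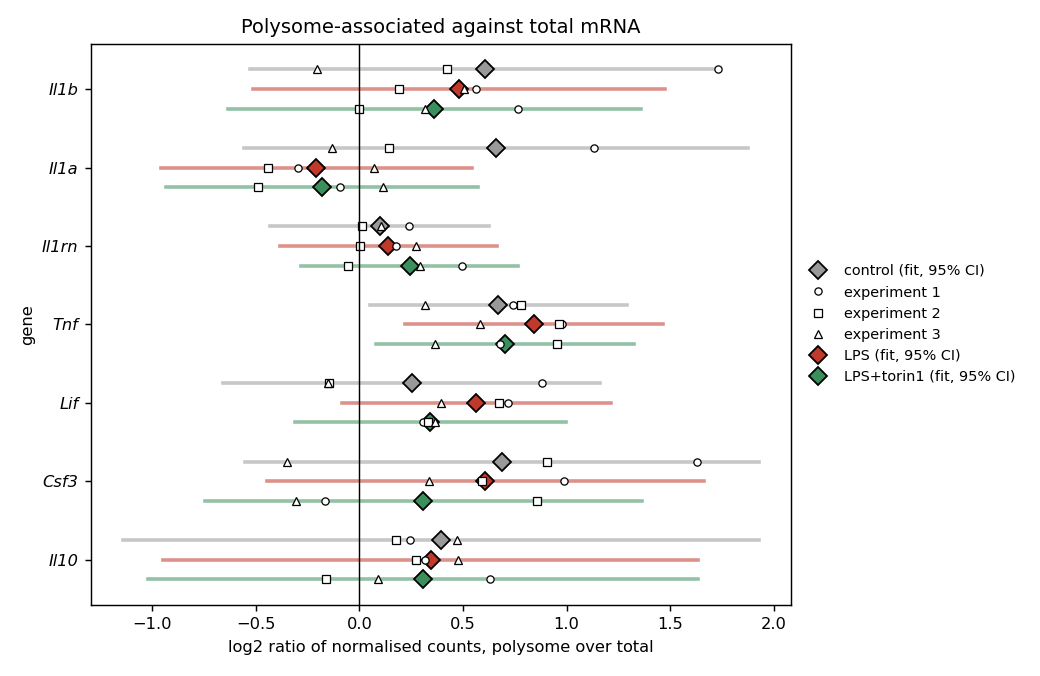
Log2 ratio of polysome-associated to total mRNA for each cytokine in control, LPS and LPS with torin1; diamonds are the fitted ratio with its 95% confidence interval and open symbols the 3 experiments. Tnf lies right of 0 in all treatments and experiments, and the 3 treatments overlap for every gene.

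Translation efficiency was compared as the difference of that ratio between treatments, and no member passed the test. For LPS with torin1 against LPS, 0 of 7 members passed the edgeR interaction test at an FDR of 0.25 and a fold of 1.2, as did 0 of all 11243 genes (0% called), while 110 genes had an unadjusted p under 0.05. The difference was −0.12 for Il1b (95% CI −1.52 to 1.29), 0.026 for Il1a (−1.04 to 1.09), 0.10 for Il1rn (−0.64 to 0.84), −0.14 for Tnf (−1.02 to 0.73), −0.22 for Lif (−1.14 to 0.70), −0.30 for Csf3 (−1.79 to 1.19) and −0.038 for Il10 (−1.89 to 1.81), each with an adjusted p of 1. With the lysate block the intervals were narrower, for example −0.75 to 0.63 for Il1b, −0.48 to 0.62 for Il1a and −0.69 to 0.18 for Lif, and the adjusted p of each member was 0.993. A partial variance regression, which adjusts polysome-associated for total mRNA, gave larger reductions for some members, though none passed. Lif was at −1.314 (SE 0.562, adjusted p = 0.835) and Il1a at −1.055 (SE 0.669, adjusted p = 0.904). Il1b was at −0.93 (SE 0.538, adjusted p = 0.887) and Csf3 at −0.621 (SE 0.384, adjusted p = 0.903). Il1rn (0.069), Tnf (−0.087) and Il10 (−0.08) changed little. Since the main test called no gene of the table, it cannot show that the translation efficiency of the members was unchanged. With anota2seq the study reported that torin1 reversed nearly all of the changes in translation after LPS.

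Csf3 showed the largest spread between experiments in the difference of the polysome to total ratio. Its change in translation efficiency with torin1 was −1.15, 0.26 and −0.64 in experiments 1, 2 and 3, so the sign differed. Tnf had −0.30, −0.01 and −0.21, and Lif −0.41, −0.34 and −0.031, negative in 3 of 3 experiments without passing. Between LPS and control, the log2 difference in translation efficiency had a median of −0.048 over the members, between −0.87 for Il1a and 0.31 for Lif, and is given as a description.

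The receptors of these cytokines were measured in the same libraries. Of 12 receptor genes listed, 9 were in the table, and Il1r1, Il1r2 and Lifr were not. In polysome-associated mRNA 6 were higher and 1 lower after LPS. Of all 11243 genes, 6191 were called after LPS in either direction and 2965 (26.4% of all) higher. Torin1 raised 4 and lowered 4 of the receptor genes, with 20.3% of all genes called higher and 18.2% lower. The median change with torin1 was 0.54 beside 0 over all genes. Over the 5 lists described here, LPS raised 55 genes and lowered 5 in polysome-associated mRNA, or 46 and 14 when libraries were scaled by their totals alone.

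For TNF and IL-10, receptor genes of the same cytokine moved in opposite directions with torin1. Il1rap, the accessory chain of the IL-1 receptor, was at 38.8 ± 6.46 CPM after LPS and 20.8 ± 2.07 with torin1 (SD, n = 3), and fell by 0.87 (adjusted p = 0.0067), beside 19.3 ± 1.37 in control. Of the TNF receptors, Tnfrsf1a fell by 0.52 (adjusted p = 0.0862), whereas Tnfrsf1b, at 61.9 ± 3.52 CPM in control and 3390 ± 1011 after LPS, rose further by 0.67 (adjusted p = 0.0547). For IL-10, Il10ra fell by 0.48 (adjusted p = 0.0934) and Il10rb rose by 0.95 (adjusted p = 0.00258).

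The G-CSF receptor gene and the gp130 gene were higher with torin1 than after LPS alone, whereas the LIF receptor gene Lifr was not in the table. Csf3r, the G-CSF receptor, rose by 1.54 (adjusted p = 0.0223), from 7.67 ± 3.13 to 21.9 ± 7.16 CPM. Il6st, the gp130 chain used by LIF, was lower after LPS, at −0.68 (adjusted p = 0.0173), and rose with torin1 by 0.54 (adjusted p = 0.0808). Its mean in polysome-associated mRNA was 184.9 CPM in control, 115.4 after LPS and 165.1 with torin1. Il1rl1, an IL-1 receptor relative that binds IL-33, fell by 0.96 (adjusted p = 0.0336), and Sigirr, at a mean of 0.294 CPM over all libraries, did not pass.

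Of 16 genes listed for processing and release of the cytokines, 14 were in the table. In polysome-associated mRNA 8 were higher after LPS and 6 did not pass, beside 26.4% of all genes called higher. Among the 8 were Casp4, an inflammatory caspase that senses LPS in the cytosol (3.20, adjusted p = 4.09e-05), Nlrp3, the sensor of the inflammasome that matures IL-1β (2.64, adjusted p = 1.02e-05), Rhbdf2, which brings the TNF sheddase to the surface (2.57, adjusted p = 5.58e-05), and Casp1, the protease that cleaves IL-1β (1.02, adjusted p = 0.00254). With torin1, Casp8 fell by 0.38 (adjusted p = 0.13) and Adam17, the TNF sheddase, rose by 0.41 (adjusted p = 0.201), and 12 did not pass, beside 20.3% of all genes called higher and 18.2% lower. Nlrp3 (0.11), Casp1 (0.022) and Gsdmd (−0.13), the pore through which IL-1β leaves, had adjusted p-values of 0.513 to 0.955.

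**Figure D5:**
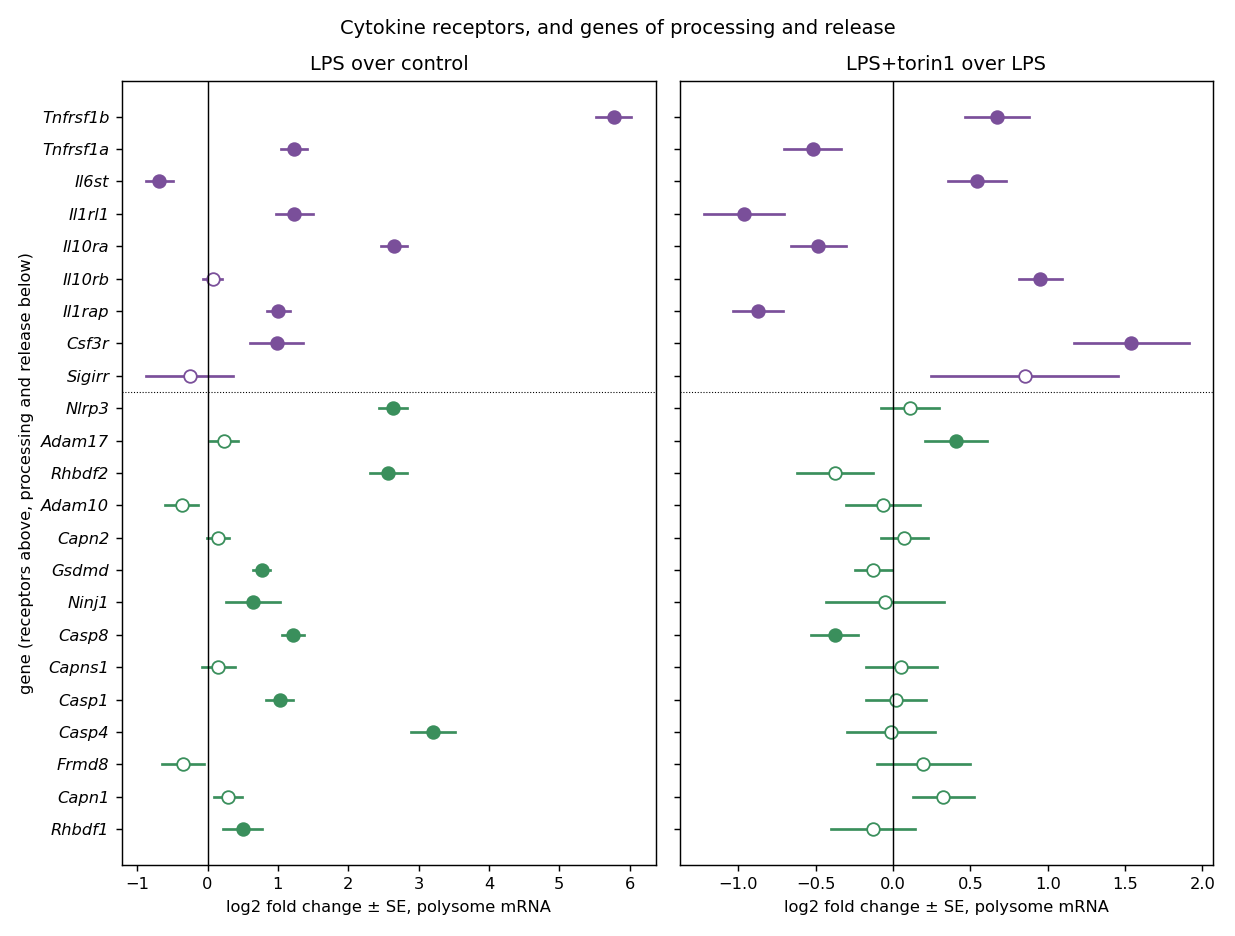
Log2 fold change (± SE) in polysome-associated mRNA of cytokine receptor genes (purple, above the dotted line) and of genes of processing and release (green), for LPS over control (left) and LPS with torin1 over LPS (right); filled points passed an FDR of 0.25. With torin1 8 of 9 receptor genes passed, in both directions, and 2 of 14 genes of processing and release.

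Other cytokine genes moved both ways with torin1. Of 47 listed, 24 were in the table. In polysome-associated mRNA 19 were higher after LPS and none lower. Over all 11243 genes, 6191 were called after LPS in either direction and 2965 (26.4% of all) higher. Torin1 lowered 10 and raised 6 of the 24, beside 18.2% of all genes called lower and 20.3% higher. The median change of the 24 with torin1 was −0.28 beside 0 over all genes. The cytokine of highest mean level, Spp1 (osteopontin), fell by 1.06 (adjusted p = 0.0408), Grn (progranulin) rose by 0.57 (adjusted p = 0.0754), and Mif was at −0.49 (adjusted p = 0.508). The largest fitted change among those called was that of Tnfsf12, which rose by 2.71 (adjusted p = 0.0214). Tnfsf12 was near the floor, at 0.59 ± 0.513 CPM after LPS and 3.9 ± 1.69 with torin1 (SD, n = 3), with as few as 5 counts. As a difference of log2(CPM + 0.5) within experiments it rose by 2.05, and other listed cytokines changed more on that scale.

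Of 24 signalling genes downstream of these receptors, 16 were higher and 2 lower after LPS, and torin1 lowered 6 and raised 1 in polysome-associated mRNA. Over all 11243 genes, 6191 were called after LPS in either direction and 2965 (26.4% of all) higher. With torin1, 18.2% of all genes were called lower and 20.3% higher. Socs3, a feedback inhibitor of cytokine receptor signalling, fell by 1.31 (adjusted p = 0.0145), the NF-κB cofactor gene Nfkbiz fell by 1.11 (adjusted p = 0.00884) and Nfkbia was at −0.075 (adjusted p = 0.878). Of 12 genes of cytokine mRNA decay, 6 were higher and 2 lower after LPS. With torin1, in polysome-associated mRNA, Zfp36l2, which encodes a protein that binds AU-rich elements, rose by 1.10 (adjusted p = 0.027). Elavl1, which encodes an AU-binding protein that stabilises mRNAs, fell there by 0.34 (adjusted p = 0.244), and the other 10 did not pass. Zfp36, the gene of tristetraprolin, was at −0.76 (adjusted p = 0.298), Mapkapk2 at 0.032 (adjusted p = 0.92) and Rc3h1 at −0.047 (adjusted p = 0.872). In total mRNA, torin1 lowered 4 and raised 1 of the decay genes, and lowered 10 and raised 3 of the signalling genes. Of all genes, 26.4% were called lower in that RNA type, and 6038 were called in either direction. Without experiment 3 the genes of the 5 lists that passed with torin1 in polysome-associated mRNA went from 35 to 20.

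Over the 18 libraries, the genes outside the members whose log2 level most resembled the mean standardised profile of the 7 were Socs3 (Pearson r = 0.996), Cd40 (0.99), Osm (0.988), Nfkbiz (0.988) and Srgn (0.987). All libraries of a lysate or treatment share their cells or conditions, so these values describe likeness only. The members' own correlations with the profile ran from 0.912 for Il10 to 0.996 for Il1b. The 5 like genes were lower with torin1 in polysome-associated mRNA by log2 differences of −0.47 to −1.31, smaller than those of Il1b, Il1a, Lif and Il10. The libraries with torin1 were among those used to pick the like genes, so their fall is not independent of the choice.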

How the data were processed

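Total and heavy-polysome mRNA of RAW cells was measured by RNA sequencing in 18 libraries, 3 experiments for each of 3 treatments and 2 RNA types, grouped by their labels. The authors made stranded, ribosomal RNA-depleted libraries, sequenced them paired-end and ran the nextflow RNAseq pipeline at default settings, with Hisat2 on GRCm38 and featureCounts on the Ensembl annotation. They restricted the table to protein-coding genes and dropped those with 0 in any library. The counts were deposited raw, without normalisation; the annotation release and how those defaults treat strand are not given in the sources used here.

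Tests used edgeR 4.0.16 under R 4.3.3 (TMM normalisation, quasi-likelihood test, Benjamini-Hochberg adjustment over 11243 genes, FDR 0.25 after the study's methods), with the 9 libraries of an RNA type in 1 model or all 18 for ratios of RNA types. CPM values are TMM-normalised, and differences within an experiment and correlations used log2(CPM + 0.5). The study tested translation efficiency with anota2seq, which was not installed; the interaction of RNA type and treatment, with a fold of at least 1.2, took its place, and a partial variance regression with limma 3.58.1 and DESeq2 1.42.0 were alternatives. In simulated counts, where 200 of 11243 genes were given a log2 change of 2, edgeR recovered 99.5% for torin1 in either RNA type and for translation efficiency. For translation efficiency it made 265 calls, and 66 of them were false. This recovery holds for a log2 change of 2 and the simulated spread only. The members' SEs for translation efficiency with torin1 were 0.351 (Il1rn) to 0.877 (Il10). The simulation therefore does not show that smaller changes of the members would be found. P-values cover the spread between 3 experiments in 1 cell line.

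The members and the gene lists were chosen with earlier results of these data known. All members were named in every library; any receptor or processing gene could be named, and of the other lists the 3 with the highest mean CPM and the one with the largest called change with torin1. Elavl1 was named after its value was seen, as the other decay gene that passed in polysome-associated mRNA. Like genes are the 5 with the highest correlation.

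By the methods, both RNA types come from the same lysate, and treatments of the same experiment number come from the same independent experiment. Deviations from group means correlated by 0.478 to 0.774 within the 9 lysates, by 0.127 to 0.54 between treatments of 1 experiment in total mRNA, and by −0.141 to 0.843 in polysome-associated mRNA, where the pairing is weaker. Replicates of a group differed well beyond counting noise. UTRs and positions come from GENCODE gene models of GRCm38.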

Additional observations from a re-analysis of the deposited data

How the results depend on the processing

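The side of the threshold of 319 of 329 single-member values stayed the same over the alternatives. They were the replicate block, DESeq2, its size factors, library totals, filters on low counts and an FDR of 0.05. Each experiment was also left out, fewer groups entered the model, and partial variance was used for translation efficiency. No value called in either fit changed sign, and all 96 values of Il1b, Il1a, Lif and Il10 with torin1 stayed called. Values that were not called could change sign. Il1rn with torin1 in polysome-associated mRNA, at 0.011, ran from −0.187 to 0.187 over the alternatives. The number of members lower with torin1 in total mRNA was 4 under every alternative, and in polysome-associated mRNA 4 to 5 with an experiment left out and 6 with the replicate block. Members enriched on polysomes after LPS numbered 2, or 5 with the replicate block, 1 (Tnf) at an FDR of 0.05, and 1 to 3 with an experiment left out. With LPS and torin1, and in control cells, the replicate block took the members enriched on polysomes from 1 to 5 in each. Genes of the 5 lists that passed with torin1 in polysome-associated mRNA numbered 35, or 23 at an FDR of 0.05 and 20 to 43 with an experiment left out. Why these counts moved was not tested, beyond the stricter threshold and the fewer libraries.

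No gene passed for translation efficiency with torin1 in the main model, against 25 with the replicate block, 7 with DESeq2 and 7 with partial variance, none of them a member. Over all genes, torin1 calls went from 6038 to 3279 (FDR of 0.05) or 3959 (without experiment 3) in total mRNA and from 4322 to 1557, or 1782 and 1187 without experiments 1 and 3, in polysome-associated mRNA. At an FDR of 0.05, polysome enrichment after LPS went from 7328 to 4841 genes, and LPS calls in polysome-associated mRNA from 6191 to 3654, or 3901 without experiment 1. Library totals in place of TMM shifted the median of all genes by LPS to −0.384 in both RNA types, which lowered Lif in total mRNA from 7.60 to 7.25 and changed the split of list genes higher and lower after LPS from 55 and 5 to 46 and 14 in polysome-associated mRNA, and from 62 and 9 to 48 and 19 in total mRNA. Depth limits mainly the control levels, where Il1a had as few as 3 counts.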
